A study of Mus musculus with 32 samples.

Results

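Platelet-derived growth factors (PDGF) and stem cell factor signal through receptor tyrosine kinases, and the genes of these ligands and receptors were followed through every treatment of an orthotopic mouse liver tumour. The 8 genes were taken by name from the 54446 genes of the count tables. They are the PDGF ligands Pdgfa, Pdgfb, Pdgfc and Pdgfd, the PDGF receptors Pdgfra and Pdgfrb, the receptor gene Kit and its ligand gene Kitl. The receptors were of interest because regorafenib, an oral multikinase inhibitor used in hepatocellular carcinoma, targets their kinases. What was measured here was the mRNA of these genes and not the activity of any kinase.

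RNA was sequenced from 32 pieces of liver tumour grown from BNL-MEA cells, a single mouse hepatocellular carcinoma line, injected into the livers of immunocompetent BALB/c mice. All 10 groups shared this host and this line, and there was no genetic change between groups. The libraries formed 3 experiments, each with its own vehicle group and its own batch label. In the dose experiment, vehicle (4 libraries) was compared with regorafenib at 5 mg/kg/day (low dose, 3 libraries) and at 20 mg/kg/day (high dose, 3 libraries). In the DC-101 experiment, vehicle (4 libraries) was compared with low dose regorafenib (3 libraries) and with DC-101, an antibody against mouse vascular endothelial growth factor receptor 2, given at 800 µg on days 1, 3 and 5 (3 libraries). In the anti-PD1 experiment, vehicle, low dose regorafenib, anti-PD1 antibody and regorafenib plus anti-PD1 had 3 libraries each, the low dose being the one used in the combination as well. The labels number the libraries within a group and do not tie them to named mice, and the age of the mice is not given in the sources used here, so the p-values measure the spread between libraries. The 3 experiments were tested separately, and all low dose and vehicle libraries were also fitted together with the experiment as a term.

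PDGF ligands are secreted dimers made by tumour, endothelial and immune cells. PDGF receptor alpha binds the A, B and C chains and is typical of fibroblasts and hepatic stellate cells, while PDGF receptor beta binds the B and D chains and is typical of pericytes, the cells that wrap small vessels. Ligand binding pairs the receptors and starts signalling through Ras and MAP kinase, phosphoinositide 3-kinase, phospholipase C gamma and Src family kinases. Kit is the receptor for stem cell factor (Kitl) and is best known in mast cells, melanocytes and haematopoietic progenitors, and it is also found on some endothelial cells.

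Between 16.8 M and 27.7 M reads were counted in a library, and counts were scaled within each experiment by TMM normalization to CPM, the count of a gene relative to the scaled size of its library. The share of liver tissue in the pieces was uneven. The mean log2 CPM of 20 hepatocyte genes lay between 0.57 and 11.9 over the libraries, and in the dose experiment it was 5.1, 6.92, 6.26 and 8.04 with vehicle, 6.74, 6.33 and 9.88 at the low dose and 11.9, 9.61 and 7.02 at the high dose. High dose library 1, the highest of these, also had the lowest TMM scaling factor (0.716). All results of the high dose rest on these 3 libraries, and leaving out 1 library of the experiment at a time gave between 15 and 7030 genes past the threshold in place of 2582.

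All members passed the filter on low counts in all experiments. Per kilobase of exon, the PDGF receptors had the highest medians of the members over the 11 vehicle libraries. Both were above every other member in each of these libraries except vehicle library 2 of the anti-PD1 experiment, where Pdgfrb was at 11.2 CPM per kb and Pdgfc at 21.8. Pdgfrb was at a mean of 46.0 ± 17.4 CPM per kb and a median of 49.5 (SD, n = 11), and Pdgfra at a mean of 40.0 ± 10.9 and a median of 36.9. Pdgfa followed with a median of 20.8 CPM per kb, Pdgfc with 13.8, Pdgfb with 12.5 and Kitl with 5.67. Kit had a median of 1.15 CPM per kb, with a range from 0.61 to 2.22, and Pdgfd a median of 0.403, with a range from 0.149 to 1.27. The order was not sharp between all neighbours, since the ranges of each gene and the next one overlapped. Pdgfrb was above Pdgfra in 8 of 11 vehicle libraries, Pdgfa above Pdgfc in 8, and Pdgfc above Pdgfb in 6. Pdgfra was above Pdgfa and Kitl above Kit in all 11, Pdgfb above Kitl in 10 and Kit above Pdgfd in 9. Over all 32 libraries, Pdgfd spanned a 24.2-fold range of CPM, Pdgfrb 15.8-fold, Kit 13.3-fold and Pdgfra 7.05-fold, against 5- to 5.65-fold for the other members.

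**Figure D1:**
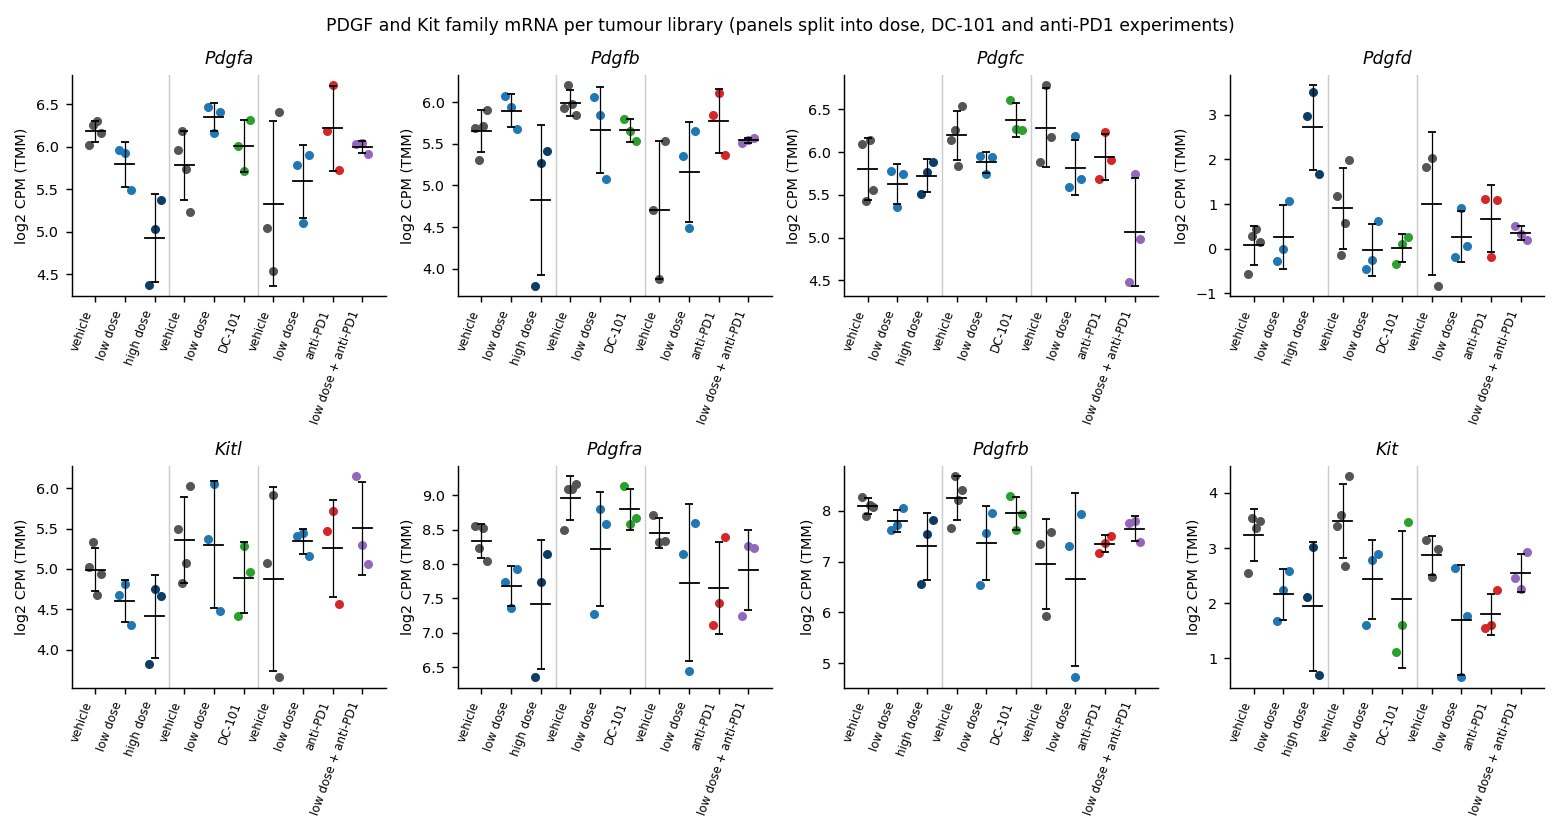
Level of each of the 8 genes in every library, as log2 CPM (vertical axis), in the 10 groups of the 3 experiments (horizontal axis). Points are libraries, and the bars give the mean and SD of the group. The PDGF receptors Pdgfra and Pdgfrb sit highest, and the high dose libraries stand above the others of their own experiment for Pdgfd. The means of the low dose groups lie below those of their vehicle groups for Kit.

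Kit, the stem cell factor receptor, is a protein-coding gene (ENSMUSG00000005672.12) at chr5:75574916-75656722 on the plus strand of GRCm38, 376.7 kb beyond the end of Pdgfra (ENSMUSG00000029231.15, chr5:75152292-75198215, plus strand). It was the member that changed at the low dose. Its RefSeq promoter (GRCm38.p6) is shown because Kit carries the low dose result. The stretch is chr5:75574737-75574915 on the plus strand, the 179 bases from 250 to 72 before the RefSeq start, outside any annotated exon, with the GC box GGGCGG in capitals.
Kit: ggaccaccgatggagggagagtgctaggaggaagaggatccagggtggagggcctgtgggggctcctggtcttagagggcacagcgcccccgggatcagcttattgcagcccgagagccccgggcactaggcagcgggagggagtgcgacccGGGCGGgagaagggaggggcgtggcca
The box (GGGCGG, or CCGCCC on the other strand) begins 98 bases before the start. It was present in 35.7% of the 32851 RefSeq promoter windows of 300 bases, and the TATA box TATAAA (or TTTATA), absent from the Kit window, in 13.6%. These are matches of letters and not sites of binding.

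In the dose experiment, Kit was at 5.74, 11.6, 10.3 and 11.3 CPM with vehicle and at 3.11, 4.61 and 5.92 CPM at the low dose. In the DC-101 experiment, it was at 10.5, 12, 6.28 and 19.8 CPM with vehicle and at 2.95, 6.81 and 7.32 CPM at the low dose. In the anti-PD1 experiment, it was at 8.77, 5.44 and 7.86 CPM with vehicle and at 6.16, 1.48 and 3.33 CPM at the low dose. All 9 low dose libraries lay below the vehicle mean of their own experiment, while 1 vehicle library in each experiment lay within the range of the low dose libraries. Over the 3 experiments the mean was 4.63 ± 2.02 CPM at the low dose (SD, n = 9) and 9.95 ± 4.03 with vehicle (SD, n = 11). In the joint fit, Kit fell by 1.09 on the log2 scale (SE 0.26, 95% interval -1.62 to -0.55, adjusted p = 0.0361 by edgeR's quasi-likelihood test with Benjamini-Hochberg adjustment), which is 0.471 of the vehicle level. This comparison called 276 of 15562 genes, 1.77%, with 114 higher and 162 lower, and Kit was the only one of the 8 members among them. In bulk tumour pieces, fewer cells of a type and less RNA per cell cannot be told apart.

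The sizes in the single experiments were alike. The log2 change of Kit was -1.13 (SE 0.52, adjusted p = 0.991) in the dose experiment, -1.10 (SE 0.63, adjusted p = 0.381) in the DC-101 experiment and -1.02 (SE 0.46, adjusted p = 0.417) in the anti-PD1 experiment. The edgeR test of a difference between the experiments gave an adjusted p of 1 for Kit, and 0% of all genes passed it. The call itself was close to the threshold. Leaving out 1 of the 20 libraries at a time, the change stayed between -1.24 and -0.98, with adjusted p between 0.0167 and 0.0748, and it passed in 10 of 20 fits. It was lost without vehicle library 2 (-1.05, adjusted p = 0.055) or 3 (-1.09, 0.0528) or low dose library 1 (-1.02, 0.0724) or 2 (-1.10, 0.0588) of the dose experiment, and without low dose library 3 of the anti-PD1 experiment (-1.07, 0.0585). It was also lost without vehicle library 1 (-1.11, 0.0528), 2 (-1.09, 0.0553) or 4 (-0.98, 0.0679) or low dose library 1 (-0.99, 0.0748) or 2 (-1.13, 0.0543) of the DC-101 experiment. With the hepatocyte level as a covariate the change was -1.03 with adjusted p = 0.0712, and with no filter on low counts it was -1.08 with 0.0593. Without the dose experiment it was -1.08 with adjusted p = 0.261, and without the DC-101 experiment -1.08 with 0.202.

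Endothelial genes moved in the same comparison, as did other marker lists given below. Of 12 endothelial markers, 8 fell in the joint fit and 11 had a lower estimate, with a median log2 change of -1.19 against 0.03 over all genes. The log2 change was -2.45 for Cldn5, a tight junction gene of endothelium, -1.39 for Emcn, an endothelial sialomucin, -1.25 for Cdh5, the endothelial cadherin, and -1.17 for Pecam1. The mean log2 CPM of these 12 genes was between 4.14 and 5.45 in the vehicle libraries and between 2.75 and 4.15 at the low dose, and none of the 12 was at 0 in any library. Across the 32 libraries, with the mean of each experiment removed, Kit followed this list with r = 0.87, and with r = 0.85 when the mean of each group was removed, as a description over libraries that share an experiment and its scaling. All values of r below are of the first kind unless said otherwise. The genes most like Kit among the expressed genes were Plekhg1 (r = 0.90), Adgrf5 (r = 0.90) and Robo4 (r = 0.89), the last of which is itself in the endothelial list. Kit followed pericyte and smooth muscle markers with r = 0.67, fibroblast and stellate markers with 0.41, megakaryocyte markers with 0.39, hepatocyte markers with -0.07 and mast cell markers with -0.05. With the group means removed these were 0.75, 0.61, 0.29, 0.24 and -0.05. In the joint low dose fit 10 of 11 pericyte and smooth muscle markers had a lower estimate (median -0.68, 1 past the test). So had 8 of 12 fibroblast and stellate cell markers (-0.25) and 3 of 3 tested megakaryocyte markers (-0.98). All 20 hepatocyte markers had a higher estimate (1.23, 1 past the test). Of 9 mast cell markers, Fcer1a, a chain of the IgE receptor, was at 0 counts in 23 of 32 libraries, Mrgprb1 in 16, Ms4a2 and Mcpt4 in 10 each, Cma1 in 3 and Cpa3 and Tpsb2 in 2 each. Hdc, the histidine decarboxylase gene, at 28 to 1100 counts, and Tpsab1, a tryptase gene, at 2 to 212 counts, were at 0 in no library. At the low dose 4 of 5 tested mast cell markers had a higher estimate in the dose experiment (median log2 change 1.60), 1 of 3 in the DC-101 experiment (-1.07) and 5 of 6 in the anti-PD1 experiment (2.95), with 2, 0 and 4 at an unadjusted p under 0.05 and 0 past the adjusted test. In the joint fit 2 of the 9 were tested, 1 higher and 1 lower. Among melanocyte and nerve markers, Dct was at 0 in 16 libraries and Sox10 in 7. The part of endothelial, pericyte, mast cell or other cell content in the Kit result was not tested.

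**Figure D2:**
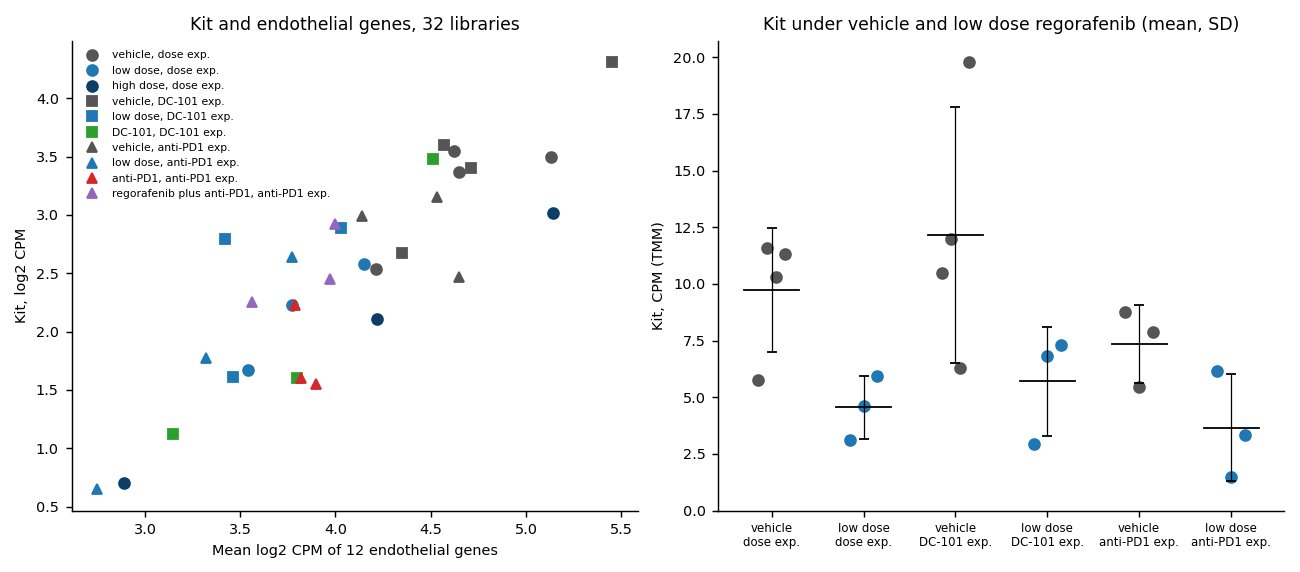
Left, log2 CPM of Kit (vertical axis) against the mean log2 CPM of 12 endothelial genes (horizontal axis) in 32 libraries, where Kit is higher in libraries with more endothelial mRNA (r = 0.87 with the experiment means removed). Right, CPM of Kit in the vehicle and low dose libraries of the 3 experiments, 1 point a library with mean and SD bars, where the low dose libraries span 1.48 to 7.32 CPM and the vehicle libraries 5.44 to 19.8 CPM.

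The ligand gene Kitl (ENSMUSG00000019966.18, chr10:100015630-100100416, plus strand) did not pass the test at the low dose. It spanned 19.7 to 66.1 CPM at the low dose with a median of 35.7 and 12.6 to 65.4 CPM with vehicle with a median of 33.5. The log2 change in the joint fit was -0.08 (SE 0.24, 95% interval -0.59 to 0.43, adjusted p = 0.909). Only 4 of 9 low dose libraries lay below the vehicle mean of their experiment.

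Of the PDGF receptors at the low dose, Pdgfra came nearest to the threshold. In the dose experiment it was at 377, 303, 369 and 264 CPM with vehicle and at 214, 164 and 244 CPM at the low dose, with no overlap. In the DC-101 experiment it was at 360, 548, 548 and 575 CPM with vehicle and at 155, 447 and 383 CPM at the low dose. In the anti-PD1 experiment it was at 420, 319 and 322 CPM with vehicle and at 284, 87.0 and 388 CPM at the low dose. The low dose libraries were below the vehicle mean of their experiment in 8 of 9 cases, and the exception was the 388 CPM library. The joint log2 change was -0.61 (SE 0.21, 95% interval -1.06 to -0.17, unadjusted p = 0.00989, adjusted p = 0.15 by edgeR). The single experiments gave -0.69, -0.63 and -0.51, none of which passed. Leaving out 1 library moved these between -0.80 and -0.53, between -0.92 and -0.29, and between -0.93 and -0.11.

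Pdgfrb (ENSMUSG00000024620.11, chr18:61045150-61085061, plus strand) varied more between libraries. It spanned 26.2 to 264 CPM at the low dose and 61.1 to 413 CPM with vehicle. The joint log2 change was -0.39 (SE 0.30, adjusted p = 0.563 by edgeR). In the DC-101 experiment it was -0.83 (SE 0.35, unadjusted p = 0.0398, adjusted p = 0.27), with 203, 413, 298 and 342 CPM with vehicle and 93.3, 191 and 249 CPM at the low dose. In the anti-PD1 experiment it was 0.01 (SE 0.60), where low dose library 2 had 26.2 CPM and vehicle library 2 had 61.1 CPM, both far below their group mates.

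Among the ligands at the low dose, none passed the test. Pdgfc (ENSMUSG00000028019.9, chr3:81036416-81214040, plus strand) had the smallest standard error, with all 9 low dose libraries below the vehicle mean of their experiment. Its median was 53.6 CPM at the low dose, with a range from 41.0 to 72.7, and 70.4 CPM with vehicle, with a range from 43.2 to 111. Its joint log2 change was -0.35 (SE 0.14, unadjusted p = 0.0242, adjusted p = 0.232 by edgeR). Pdgfa differed in sign between experiments, with -0.41 (SE 0.22) in the dose experiment and 0.53 (SE 0.22, adjusted p = 0.268) in the DC-101 experiment, and the test of a difference between the 3 experiments gave an adjusted p of 0.699 by edgeR. Pdgfb (ENSMUSG00000000489.7, chr15:79995874-80014977, minus strand) had a joint change of 0.09 (SE 0.19). Pdgfd had a joint change of -0.65 (SE 0.39, adjusted p = 0.445 by edgeR), with 8 of 9 low dose libraries below the vehicle mean. Its sign differed as well, with 0.24 in the dose, -1.13 in the DC-101 and -1.14 in the anti-PD1 experiment, none past the test. The median joint change of the 8 members was -0.37, against 0.03 over all genes.

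In the single experiments the low dose called 0 of 16525 genes (0%) in the dose experiment, 4 of 16138 (0.0248%) in the DC-101 experiment and 0 of 16615 (0%) in the anti-PD1 experiment. No member was among them. At an unadjusted p under 0.05 there were 0, 2 and 1 members, beside 817, 2766 and 1964 genes in all, and DESeq2 called 0 members in each of these comparisons.

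**Figure D3:**
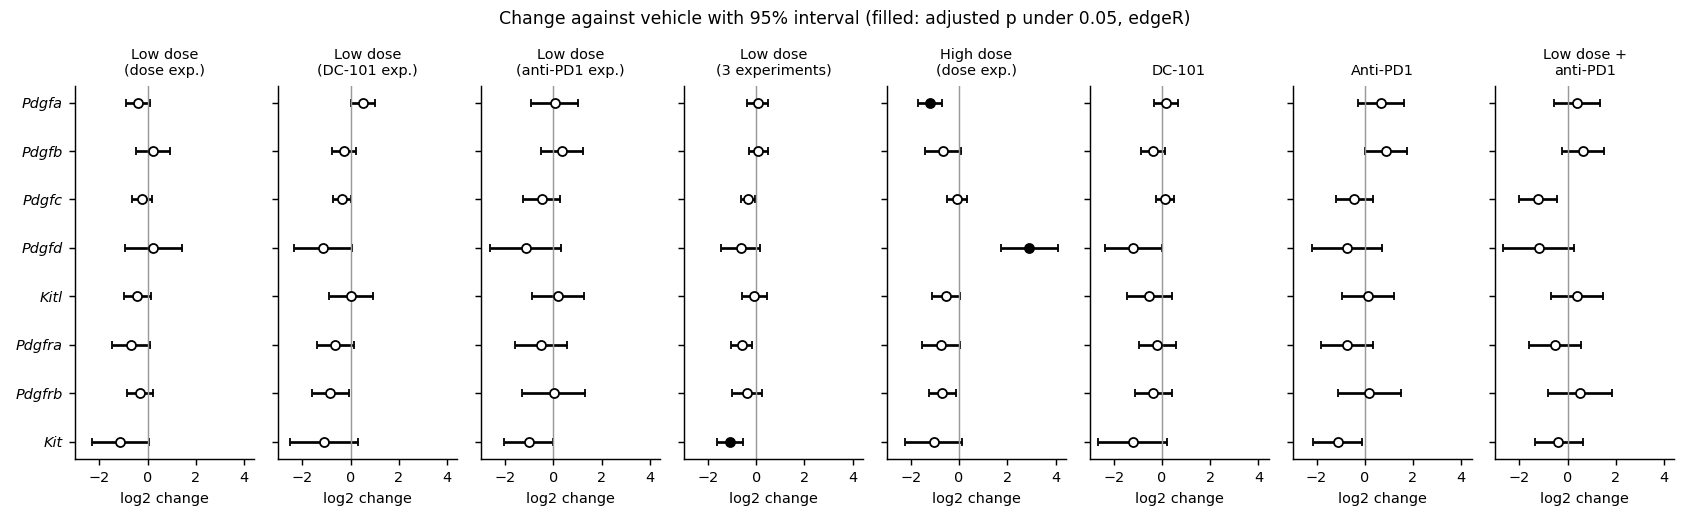
Log2 change (horizontal axis) of each of the 8 genes (vertical axis) against vehicle, as the edgeR estimate with its 95% interval, 1 panel a comparison. Filled points passed an adjusted p of 0.05, which are Kit at the low dose over 3 experiments (-1.09) and Pdgfa (-1.19) and Pdgfd (2.90) at the high dose.

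At the high dose, 2 PDGF ligands changed in opposite directions: Pdgfd rose and Pdgfa fell. The high dose called 2582 of 16525 genes against vehicle, 15.6%, with 1455 higher and 1127 lower, and 2 of the 8 members were among them. The median log2 change of the members was -0.68, against 0.02 over all genes, and 7 of 8 members had a lower estimate. At an unadjusted p under 0.05 by edgeR there were 3 members against vehicle, beside 6621 genes in all (40.1%). Against the low dose there were 3 members, beside 4842 genes in all (29.3%).

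Pdgfd, the D chain, which is secreted in a latent form and released by cleavage, is a protein-coding gene (ENSMUSG00000032006.15) at chr9:6168584-6378850 on the plus strand. Its RefSeq promoter (GRCm38.p6) is shown because Pdgfd had the largest change of the members. The stretch is chr9:6168236-6168485 on the plus strand, the 250 bases before the RefSeq start, outside any annotated exon, with the TATA box in capitals.
Pdgfd: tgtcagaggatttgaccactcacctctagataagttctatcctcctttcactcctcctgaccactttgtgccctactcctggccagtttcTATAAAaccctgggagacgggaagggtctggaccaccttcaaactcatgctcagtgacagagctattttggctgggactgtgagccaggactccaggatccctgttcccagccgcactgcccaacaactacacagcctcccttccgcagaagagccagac
The TATAAA letters begin 160 bases before the start, and no GC box was in the window.

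Pdgfd was at 0.595, 1.13, 1.27 and 1.03 CPM with vehicle, at 0.751, 0.909 and 2.01 CPM at the low dose and at 7.82, 11.4 and 3.09 CPM at the high dose. The high dose libraries were above all others of the experiment, and they differed among themselves. The means were 1.01 ± 0.292 CPM (SD, n = 4), 1.22 ± 0.687 (n = 3) and 7.43 ± 4.16 (n = 3). Pdgfd rose by 2.90 on the log2 scale against vehicle (SE 0.53, 95% interval 1.72 to 4.09, adjusted p = 0.0264 by edgeR), which is 7.48-fold. It was also higher than at the low dose, by 2.66 (SE 0.58, 95% interval 1.36 to 3.96, adjusted p = 0.0412 by edgeR), in a comparison that called 697 of 16525 genes, 4.22%. Its counts were low, between 11 and 314 per library over the series. Vehicle libraries reached 3.85 CPM in the DC-101 experiment and 3.99 CPM in the anti-PD1 experiment, above the lowest high dose library. From vehicle to the low dose of the dose experiment the change of Pdgfd was 0.24 (SE 0.52, 95% interval -0.94 to 1.42, adjusted p = 0.994 by edgeR).

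The Pdgfd call against vehicle was held in 5 of the 10 fits that leave out 1 library, with changes between 2.48 and 3.24. It was lost without any 1 of the vehicle libraries (2.71, 2.98, 3.02 and 2.91, with adjusted p of 0.079, 0.0645, 0.0732 and 0.0786 by edgeR) and without low dose library 1 (2.88, 0.0504). With the hepatocyte level as a covariate the change was 1.92 with adjusted p = 0.0907, and with only the high dose and vehicle libraries in the fit it was 2.91 with 0.0686. The call against the low dose was held in 1 of 10 such fits, the one without high dose library 3, with changes between 2.22 and 3.19, and it was lost under total count scaling (2.5, adjusted p = 0.066), with no filter (2.60, 0.0603) and with only the groups compared (2.65, 0.216). The gene most like Pdgfd over the 32 libraries was Rgs5, a marker of pericytes (r = 0.85), followed by Ginm1 (0.80) and Smpd2 (0.79). Rgs5 rose as well at the high dose, by 2.37 (adjusted p = 0.0399 by edgeR). It was picked by an r that includes the high dose shift, so this rise is not a separate observation. Of the 11 pericyte and smooth muscle markers tested there, 2 rose and 0 fell, and 7 had a higher and 4 a lower estimate, with a median of 0.75. Pdgfd followed the mean of the whole list with r = 0.51, and with 0.33 when the group means were removed. With the other lists r was between -0.28 (macrophage) and 0.38 (endothelial), and with the group means removed it was 0.56 for the endothelial and 0.50 for the macrophage list. The mean log2 CPM of the pericyte and smooth muscle markers was 3.76 at the high dose, with a range from 2.86 to 4.84, and 3.16 with vehicle, with a range from 2.74 to 3.6, and its part in the Pdgfd result was not tested.

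Pdgfa, the A chain, a ligand of PDGF receptor alpha, is a protein-coding gene (ENSMUSG00000025856.15) at chr5:138976014-138997370 on the minus strand. A RefSeq promoter stretch (GRCm38.p6) is shown because Pdgfa was the member that fell at the high dose. It is chr5:138994282-138994398 on the minus strand, the 117 bases before the start of a shorter transcript, inside the span of the gene and outside any annotated exon, with the GC box in capitals.
Pdgfa: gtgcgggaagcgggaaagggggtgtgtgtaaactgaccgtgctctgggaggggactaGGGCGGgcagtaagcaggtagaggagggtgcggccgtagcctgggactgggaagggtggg
The GC box begins 60 bases before that start. Of the members with a promoter window used here, 6 in all, the GC box was in those of Kit, Pdgfa and Kitl and the TATA box in those of Pdgfd and Kitl, and neither was in those of Pdgfc and Pdgfra.

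Pdgfa was at 64.8, 76.1, 78.9 and 71.5 CPM with vehicle, at 62.2, 60.8 and 44.7 CPM at the low dose and at 20.7, 32.6 and 41.6 CPM at the high dose. Within this experiment these 3 ranges did not overlap and descended with the dose. The share of all genes ordered in this way was not counted. At the low dose of the DC-101 and anti-PD1 experiments the Pdgfa change was 0.53 and 0.05, neither past the test. In the dose experiment, the levels of Pdgfa were averaged by group. The means were 72.8 ± 6.13 CPM (SD, n = 4), 55.9 ± 9.69 (n = 3) and 31.6 ± 10.5 (n = 3). Pdgfa fell by 1.19 on the log2 scale at the high dose against vehicle (SE 0.22, 95% interval -1.70 to -0.69, adjusted p = 0.0269 by edgeR), which is 0.437 of the vehicle level. The change from the low to the high dose was -0.78 (SE 0.23, unadjusted p = 0.00805, adjusted p = 0.086), and that from vehicle to the low dose was -0.41 (SE 0.22, adjusted p = 0.991). Pdgfa shares 813 exonic bases with the antisense gene 6330403L08Rik, which had 55 to 355 counts per library, and since the strand setting of the counting is not given, reads of this overlap may have been assigned to either gene.

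The Pdgfa call at the high dose was held in 3 of 10 fits with 1 library left out, with changes between -1.45 and -0.96. It was lost without any 1 of the vehicle libraries (-1.26, -1.13, -1.16 and -1.20, with adjusted p of 0.0679, 0.0741, 0.077 and 0.0779 by edgeR), without low dose library 1 (-1.19, 0.057) or 2 (-1.18, 0.0506) and without high dose library 2 (-1.19, 0.0568). With the hepatocyte level as a covariate it was -0.88 with adjusted p = 0.0734, with only the high dose and vehicle libraries in the fit -1.19 with 0.0734, and under total count scaling -1.29 with 0.0659. All 20 hepatocyte genes had a higher estimate at the high dose, with a median log2 change of 3.62, and 2 of them passed the test, while 6 of 8 macrophage genes fell, with a median of -1.35. The part of this tissue composition in the changes of Pdgfa and Pdgfd was not tested.

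**Figure D4:**
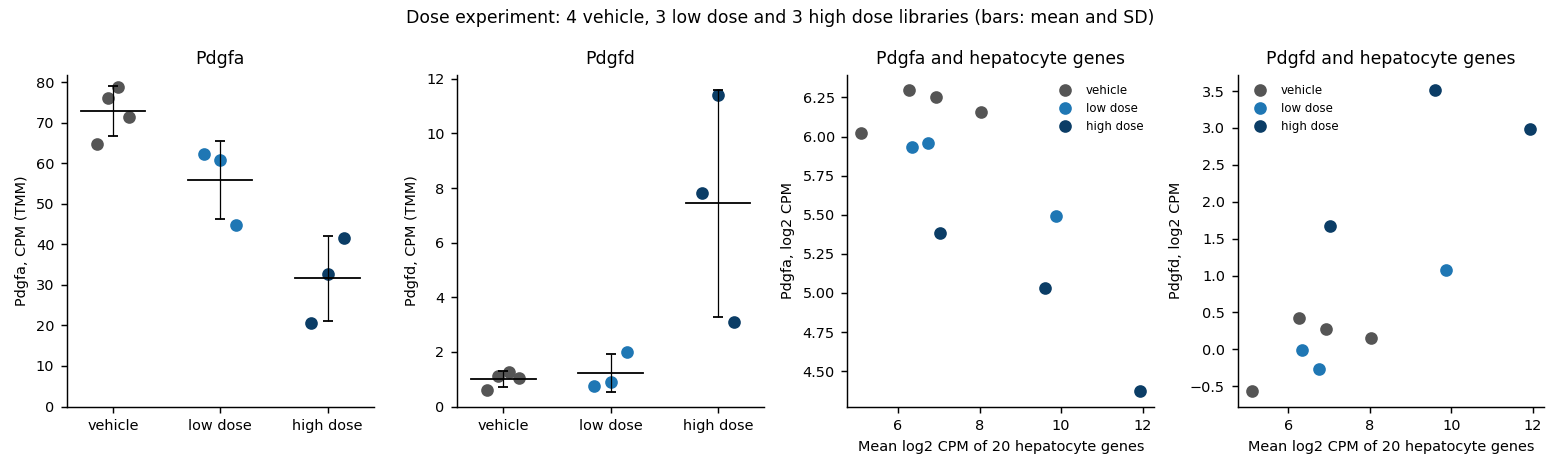
Left pair of panels, CPM of Pdgfa and Pdgfd (vertical axes) in the vehicle, low dose and high dose libraries of the dose experiment, 1 point a library with the mean and SD, where Pdgfa spans 64.8 to 78.9 CPM with vehicle and 20.7 to 41.6 CPM at the high dose, and Pdgfd 0.595 to 1.27 and 3.09 to 11.4 CPM. The right pair plots log2 CPM of these genes against the mean log2 CPM of 20 hepatocyte genes (horizontal axis), where the high dose libraries sit at 7.02 to 11.9.

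The other members did not pass at the high dose. Pdgfrb was at 310, 239, 277 and 271 CPM with vehicle, at 197, 213 and 264 CPM at the low dose and at 94.6, 186 and 226 CPM at the high dose, so that high dose and vehicle did not overlap. Its log2 change against vehicle was -0.69 (SE 0.25, unadjusted p = 0.0214, adjusted p = 0.0743 by edgeR), where 40.1% of all genes had an unadjusted p under 0.05. Pdgfra was at 81.7, 214 and 285 CPM at the high dose, with a change of -0.75 (SE 0.35, adjusted p = 0.136). Without high dose library 3 both receptors passed, Pdgfra with -1.15 (adjusted p = 0.0368) and Pdgfrb with -0.96 (adjusted p = 0.0223), in a fit where 7030 genes in all passed. Without high dose library 1 the changes were -0.38 for Pdgfra and -0.39 for Pdgfrb, neither past the test. Kit was at 4.23, 8.02 and 1.55 CPM at the high dose, a change of -1.06 (SE 0.52, adjusted p = 0.16). Against the low dose, Kit differed by 0.07 (SE 0.55, 95% interval -1.16 to 1.30). Pdgfb, at 51.7, 39.3, 52.1 and 59.6 CPM with vehicle and 67.3, 61.3 and 51.1 CPM at the low dose, was at 13.7, 38.4 and 42.6 CPM at the high dose. Its changes were -0.67 against vehicle (adjusted p = 0.152) and -0.89 against the low dose (unadjusted p = 0.0285, adjusted p = 0.136). Kitl had a change of -0.53 (SE 0.26, adjusted p = 0.153) and Pdgfc of -0.08 (SE 0.18, adjusted p = 0.76) against vehicle.

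DC-101 blocks a receptor that regorafenib also targets, and its libraries serve to set the members beside an agent without action on PDGF receptors or Kit. No member passed, among 0 genes called of 16138 (0%) against vehicle, and 0 members had an unadjusted p under 0.05, beside 2131 genes in all. Kit was at 2.09, 2.93 and 11.0 CPM with DC-101, against 10.5, 12, 6.28 and 19.8 with vehicle. Of the DC-101 libraries, 2 lay below all vehicle libraries and 1 lay among them. The log2 change was -1.22 (SE 0.63, adjusted p = 0.414 by edgeR), beside -1.10 for the low dose of regorafenib, with the same vehicle libraries in both. Leaving out 1 library moved the DC-101 value between -2.29, without DC-101 library 3, and -0.80, without DC-101 library 1, and it passed in 0 of 10 such fits. The direct difference of the low dose and DC-101 was 0.13 (SE 0.65, 95% interval -1.35 to 1.61), so the interval leaves room for a difference in either direction. The mean of the endothelial genes was 3.82 with DC-101, with a range from 3.15 to 4.51, and 4.77 with vehicle, with a range from 4.35 to 5.45.

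Of the PDGF genes with DC-101, Pdgfd had the lowest estimate. Pdgfra was at 565, 384 and 408 CPM (-0.20, SE 0.34) and Pdgfrb at 312, 197 and 245 CPM (-0.35, SE 0.34). Pdgfd was at 0.696, 0.978 and 1.10 CPM, against 2.19, 0.808, 1.40 and 3.85 with vehicle (-1.18, SE 0.53, adjusted p = 0.381 by edgeR). Pdgfb, at 55.4, 50 and 46.1 CPM, lay below all vehicle libraries (60.9, 73.8, 62.9 and 57.2) with a change of -0.37 (SE 0.22, adjusted p = 0.473). Between the low dose and DC-101, also with 0% of genes called, the nearest member was Pdgfc. It was at 62.0, 53.2 and 61.3 CPM at the low dose and at 97.3, 77 and 76.3 CPM with DC-101, with no overlap and a difference of -0.48 (SE 0.18, unadjusted p = 0.0222, adjusted p = 0.505). Pdgfa was at 88.4, 71.4 and 84.9 CPM at the low dose, at 64.5, 52.3 and 79.9 with DC-101 and at 62.1, 72.7, 53.4 and 37.4 with vehicle.

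The anti-PD1 experiment asked how checkpoint blockade alone and together with regorafenib compares with vehicle. No member passed in any of its comparisons, in each of which 0% of the 16615 genes passed. At an unadjusted p under 0.05 there were 2 members with anti-PD1 against vehicle (2269 genes in all), 1 with the combination against vehicle (1362 genes), 1 with the combination against anti-PD1 (1443 genes) and 1 in the interaction (1794 genes), and DESeq2 called 0 members in each.

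Kit was lowest in the groups given a single agent. It was at 2.84, 2.95 and 4.60 CPM with anti-PD1, all below the vehicle libraries (8.77, 5.44 and 7.86), with a log2 change of -1.13 (SE 0.46, unadjusted p = 0.0323, adjusted p = 0.32 by edgeR). With regorafenib plus anti-PD1 it was at 5.37, 4.67 and 7.46 CPM, a change of -0.38 (SE 0.46, adjusted p = 0.846) against vehicle. These libraries were all above those with anti-PD1 alone, by 0.75 (SE 0.46, adjusted p = 0.696). The interaction, which asks whether regorafenib acts differently with and without anti-PD1, was 1.78 for Kit (SE 0.65, 95% interval 0.35 to 3.21, unadjusted p = 0.0192, adjusted p = 0.331). The 12 endothelial genes all had an interaction estimate above 0, with a median of 1.04, and so had 10 of 11 pericyte and smooth muscle genes (median 1.55), 10 of 12 fibroblast and stellate cell genes (0.94), 3 of 3 tested megakaryocyte genes (2.59) and 19 of 20 hepatocyte genes (4.04). Mast cell markers were above 0 in 1 of 6 cases (-1.37), macrophage markers in 3 of 8 (-0.19), cholangiocyte markers in 1 of 6 (-0.87) and nerve and melanocyte markers in 1 of 3 (-0.94). The median over all genes was -0.03, and 0 genes of these lists passed the adjusted test. Their part in the Kit values was not tested.

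Among the ligands of this experiment, Pdgfc had the smallest p in the combination. It was at 59.2, 111 and 72.2 CPM with vehicle, 48.1, 72.7 and 51.2 CPM with low dose regorafenib, 51.4, 75.2 and 59.9 CPM with anti-PD1 and 22.2, 53.4 and 31.4 CPM with both. The combination did not overlap with vehicle and differed by -1.23 (SE 0.36, 95% interval -2.02 to -0.44, unadjusted p = 0.00541, adjusted p = 0.48 by edgeR). It differed from anti-PD1 by -0.80 (SE 0.36, adjusted p = 0.555). Pdgfb was at 57.7, 69.0 and 40.8 CPM with anti-PD1, against 26.2, 14.6 and 46.2 with vehicle, a change of 0.89 (SE 0.40, unadjusted p = 0.0481, adjusted p = 0.36 by edgeR). Leaving out 1 library moved this change between 0.57 and 1.43. The combination gave 45.5, 46.5 and 47.5 CPM of Pdgfb. Pdgfd was at 1.33, 1.17 and 1.05 CPM in the combination and at 3.48, 3.99 and 0.47 with vehicle, a change close in size to that of Pdgfc with a larger error (-1.19, SE 0.67, adjusted p = 0.664). Pdgfa was at 72.9, 106 and 53.0 CPM with anti-PD1, at 65.0, 65.8 and 59.9 with both, at 54.9, 34.1 and 59.6 at the low dose and at 32.8, 23.1 and 84.8 with vehicle, so the vehicle libraries enclosed most of the treated ones. Pdgfra was at 138, 174 and 337 CPM with anti-PD1 (-0.75, SE 0.50, adjusted p = 0.532) and at 152, 308 and 300 CPM with both (-0.52, SE 0.49), the latter all below vehicle. Pdgfrb stayed at 145 to 182 CPM with anti-PD1 and at 166 to 225 CPM with both.

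Levels of ligands and receptors were compared across libraries after removing the mean of each group, in 5 known pairs. None passed the adjustment over the 5 pairs, in permutation tests that were two-sided. Pdgfb and Pdgfrb came nearest, with Pearson's r = 0.56 (n = 32, permutation p = 0.0379, adjusted p = 0.19) and Spearman's rho = 0.45 (permutation p = 0.0545, adjusted p = 0.272). Without the 2 libraries farthest from the median of the ligand r was 0.38, and within experiments it was 0.83 (dose), -0.43 (DC-101) and 0.79 (anti-PD1), so the relation did not hold in the DC-101 experiment. Without low dose library 3 of the DC-101 experiment r was 0.69 with adjusted permutation p = 0.0424. Kitl and Kit had r = -0.05 (permutation p = 0.799, adjusted p = 0.799) and rho = -0.13 (adjusted p = 0.664), and r without those 2 libraries was 0.01. Pdgfa and Pdgfra had r = 0.15 and rho = 0.10, and Pdgfc and Pdgfra r = 0.13 and rho = 0.15 (adjusted permutation p for r = 0.679 for both). Under total count scaling these r were 0.34 and 0.32, with an adjusted permutation p of 0.279 for both. Pdgfd and Pdgfrb had r = -0.33 (adjusted permutation p = 0.431) and rho = -0.24. Within experiments the r of Pdgfa and Pdgfra was 0.68 (dose), -0.28 (DC-101) and 0.11 (anti-PD1).

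Among the members themselves, as a description over 32 libraries, Pdgfa and Pdgfb went together (r = 0.76) and so did Pdgfra and Pdgfrb (r = 0.71), while Pdgfa and Pdgfd went in opposite directions (r = -0.79). After removing the group means these were 0.77, 0.77 and -0.76. Pdgfrb was most like Kif26b (r = 0.93), Bgn, a matrix proteoglycan (0.92), and Chd3 (0.90). Pdgfra was most like Cemip2 (0.92), Mecom (0.91) and Rflnb (0.91). Pdgfa was most like Ercc1 (0.91), Kcnn4 (0.88) and Hmcn2 (0.87), and Pdgfb like Pygo2 (0.91), Spsb1 (0.90) and Xrcc1 (0.90). Pdgfc and Kitl had no gene as near, with at most 0.75 (Bbs4) and 0.74 (Gm13212). With the mean of pericyte and smooth muscle markers r was 0.11 for Pdgfra and 0.08 for Pdgfrb, and with that of fibroblast and stellate cell markers it was 0.14 and 0.25.

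**Figure D5:**
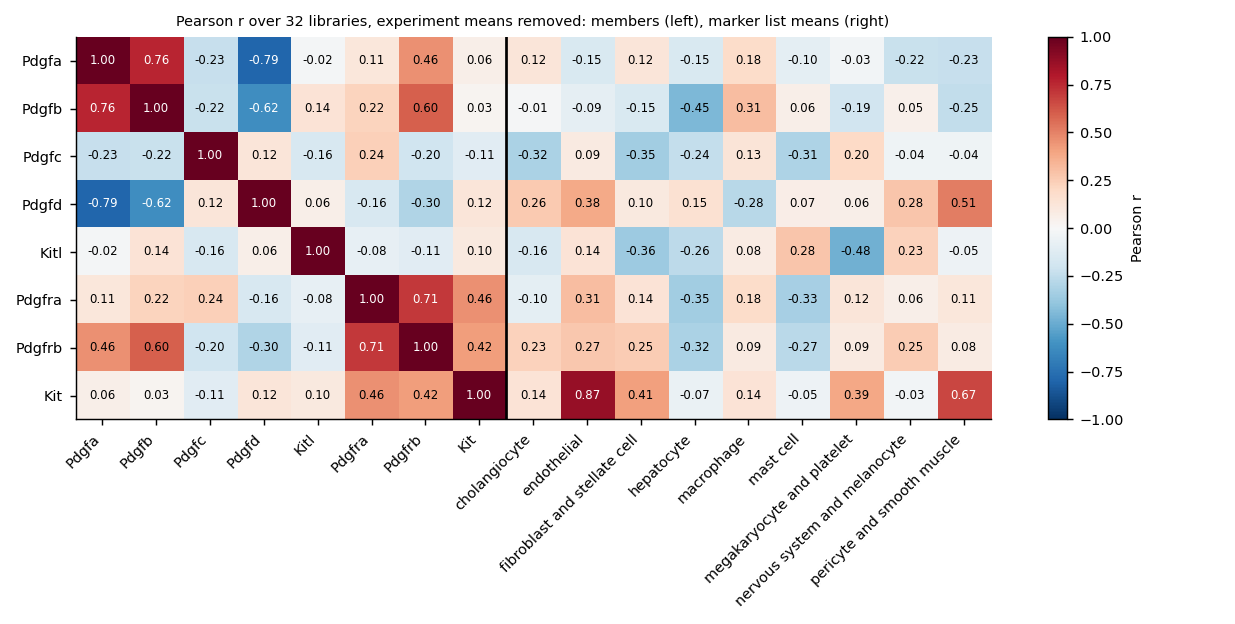
Pearson's r across 32 libraries, experiment means removed, between the log2 CPM of the 8 genes and between each of them and the mean log2 CPM of the cell type marker lists, as a colour scale from -1 to 1. Among the lists Kit has its highest r with the endothelial one (0.87), followed by the pericyte and smooth muscle list (0.67). Pdgfa and Pdgfd form the strongest opposite pair (-0.79).

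The genes around the members were read from lists, and at the high dose the counts below stand beside the 15.6% of all genes called. Of 34 genes of signalling downstream of the receptors, all were tested at the high dose, and 0 rose and 3 fell against vehicle, with a median log2 change of -0.14. Those that fell were Lyn, a Src family kinase (-1.17), Sh2b3, an adaptor that dampens receptor signalling (-0.56), and Ptpn6, a phosphatase of blood cells that acts on Kit (-0.80). These 3 genes are known in myeloid cells, and the part of the lower macrophage markers in their values was not tested. Of 15 tested genes that process or bind the ligands or act on the receptors, 2 rose, the proprotein convertase gene Pcsk6 (3.50) and A2m, an alpha-2-macroglobulin gene (3.51), and 3 fell, the metalloproteinase genes Adam10 (-0.83) and Adam17 (-0.71) and the phosphatase gene Ptpn1 (-0.68), with a median of -0.35. Of 13 tested genes of other kinases that regorafenib targets, 0 rose and 2 fell, Flt1, a vascular endothelial growth factor receptor (-1.71), and Csf1r, the macrophage colony-stimulating factor receptor (-1.68), with a median of -0.43. The Csf1r change from the low to the high dose was -2.41, also past the test.

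At the low dose over the 3 experiments, where 1.77% of all genes were called, 1 signalling gene rose, Ptpn6 (0.59, adjusted p = 0.029 by edgeR), and 1 fell, Grb10, an adaptor of receptor tyrosine kinases (-1.44, adjusted p = 0.0428), of 34 tested, with a median of 0.01. Ptpn6 was thus higher than vehicle at the low dose over the 3 experiments and lower at the high dose of the dose experiment. In the joint low dose fit 7 of 8 macrophage markers had a higher estimate, with a median of 0.22, and 1 of them rose, Fcgr1, an Fc receptor gene (0.73, adjusted p = 0.0405). In the single experiments 8 of 8 (dose, median 0.77), 2 of 8 (DC-101, -0.14) and 4 of 8 (anti-PD1, -0.04) were higher, with 0 past the adjusted test, and their part in the Ptpn6 value was not tested. Of the processing and binding genes 0 passed, with a median of 0.04. Of the other target kinases 1 of 13 fell, Flt1 (-1.61, adjusted p = 0.000158), which is made by endothelial cells, with a median of -0.15. Kcnj8, a potassium channel gene used as a pericyte marker, fell by 1.76 (adjusted p = 0.00385 by edgeR). It was the only 1 of 11 tested pericyte and smooth muscle markers past the test. Against vehicle, 0 genes of the 3 lists passed the test with DC-101, anti-PD1 or the combination. An unadjusted p under 0.05 was found with DC-101 for 8 of 34 signalling, 3 of 15 processing and binding and 3 of 13 target kinase genes, beside 13.2% of all genes. With anti-PD1 these were 5, 5 and 3, beside 13.7%, and with the combination 2, 4 and 1, beside 8.2%.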

How the data were processed

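The authors extracted total RNA from tumour pieces (frozen per the labels, fresh per the study's methods), prepared stranded mRNA libraries, trimmed adapters with cutadapt 2.4 and aligned reads to GRCm38 with STAR 2.7.2a, which also counted reads per Gencode gene. What the authors deposited are raw counts, neither normalized nor filtered. The strand setting of the counting is not given in the sources used here. Coordinates and exon lengths came from a later Gencode release on GRCm38 (54409 of 54446 identifiers matched, 99.93%), and promoters from RefSeq (GRCm38.p6).

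Libraries held 16.8 M to 27.7 M counted reads. Genes were filtered by edgeR's filterByExpr (minimum count 10, minimum total 15), scaled by TMM and tested with edgeR 4.0.16 (robust quasi-likelihood F-test, all groups of an experiment in 1 fit) in R 4.3.3, with Benjamini-Hochberg adjustment over all genes tested and a threshold of 0.05. Low dose and vehicle libraries of the 3 experiments were also fitted jointly with experiment as a term. log2 CPM used a prior count of 2. Correlations across libraries were taken after removing experiment means, and those of ligands with receptors after removing group means, with 100000 permutations (scipy 1.17.1). Alternatives were DESeq2 1.42.0, limma voom (limma 3.58.1), other scalings and filters, a replicate block, a hepatocyte covariate and leaving out libraries or experiments. The procedures were tested on simulated data. Of 36 pairs of libraries within groups, none agreed within counting noise (chi-square per degree of freedom 12.9 to 834.2). The 8 genes and all gene lists were chosen with earlier results of these data known. Genes of the lists that are named with a change passed the threshold, though not all that passed are named. Mast cell and melanocyte genes are named for their counts. The 3 most correlated genes are named for each member, except Pdgfc and Kitl, for which only the first is. The share of all genes whose groups did not overlap was not counted. The study's macrophage cultures were not analysed here.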

Additional observations from a re-analysis of the deposited data

Results flagged for a closer look

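Among the groups of 4 libraries, 16 combinations of member and group were examined for a library far from the rest, of which chance alone marks about 1 in 20. One stood out. Pdgfra in vehicle library 1 of the DC-101 experiment was at 8.49 log2 CPM, while the other 3 vehicle libraries were at 9.10, 9.10 and 9.17. At 360 CPM it lay within the range of the low dose libraries of that experiment (155, 447 and 383 CPM).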

How the results depend on the processing

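Of 1896 log2 changes of members recomputed under an alternative, 1779 kept their direction and side of the threshold, 46 lost and 4 gained a call and 67 changed sign. With high against vehicle, 1 member passed under total count scaling, 0 under a replicate block, a hepatocyte covariate or only the groups compared, and 0 to 4 with 1 library left out, in place of 2. With high against low dose, 0 passed under total count scaling, no filter, the block or only the groups compared, 2 with DESeq2 (3059 genes in all, in place of 697) and 0 to 2 with 1 library left out, in place of 1. At the low dose over 3 experiments, 0 passed with no filter, the covariate or without the dose or the DC-101 experiment, and 0 to 1 with 1 library left out, in place of 1. The ligand and receptor pairs had 0 to 1 past the threshold with 1 library left out, the 1 being Pdgfb and Pdgfrb. Replicate numbers did not pair the libraries, since 2 of 9, 4 of 9 and 6 of 18 same-number pairs correlated above 0.1 in the 3 experiments. Under the block Kit kept its call at the low dose (-1.01, adjusted p = 0.0459) and Pdgfd (2.99, 0.192) and Pdgfa (-1.22, 0.192) at the high dose did not, where 1 gene of all passed.

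Of 96 log2 changes 22 changed sign under some alternative, with main values of at most 0.30 in size and none called, and the cause was not tested. With the hepatocyte covariate, Pdgfd at the low dose of the dose experiment was -0.19, Pdgfc at the high dose 0.06, Pdgfrb -0.46 at the low dose of the anti-PD1 experiment and -0.28 with anti-PD1, and Kitl -0.25 for the combination against anti-PD1, -0.86 in the interaction and 0.06 at the low dose over 3 experiments. From low to high dose it gave Pdgfra 0.07, Kit -0.48 and Kitl 0.09. The high against low change of Kit was -0.08 under total count scaling, -0.17 with voom and -0.03 with the block. With voom, Kitl at the low dose and Pdgfd for low dose against DC-101 were -0.03 each in the DC-101 experiment, Pdgfrb at the low dose of the anti-PD1 experiment was -0.30 and Kitl in the interaction -0.21. With the block these last values were -0.09 and -0.08, and Kitl over 3 experiments was 0.05. Over the remaining experiments, Kitl was 0.09 without the dose experiment, Pdgfa -0.19 without the DC-101 experiment and Pdgfb -0.02 without the anti-PD1 experiment.

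Leaving out 1 library moved Pdgfd at the low dose of the dose experiment between -0.29 and 0.50, Pdgfc at the high dose between -0.19 and 0.02, and, from low to high dose, Pdgfra between -0.46 and 0.31, Kit between -0.59 and 0.46 and Kitl between -0.27 and 0.13. In the DC-101 experiment Kitl at the low dose moved between -0.44 and 0.34, and low dose against DC-101 between -0.13 and 0.34 for Pdgfb, -0.36 and 0.25 for Pdgfd and -0.29 and 1.19 for Kit. In the anti-PD1 experiment the low dose ranges were -0.27 to 0.83 for Pdgfa, -0.60 to 0.50 for Pdgfrb and -0.20 to 0.83 for Kitl, those of anti-PD1 -0.16 to 0.54 for Pdgfrb and -0.25 to 0.77 for Kitl, those of the combination against anti-PD1 -0.49 to 0.02 for Pdgfa, -0.02 to 0.71 for Pdgfra and -0.14 to 0.49 for Kitl, and those of the interaction -0.19 to 0.91 for Pdgfrb and -0.58 to 0.45 for Kitl. Over the 3 experiments they were -0.02 to 0.26 for Pdgfa, -0.01 to 0.20 for Pdgfb and -0.22 to 0.05 for Kitl. The correlation of Pdgfa and Pdgfra moved between -0.01 and 0.27, that of Pdgfc and Pdgfra between 0 and 0.35, that of Pdgfb and Pdgfrb between 0.46 and 0.69, that of Pdgfd and Pdgfrb between -0.40 and -0.23 and that of Kitl and Kit between -0.14 and 0.02.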
